A study of Arabidopsis thaliana with 16 samples.

Results

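H3K27me3 is the trimethyl mark on lysine 27 of histone H3 that Polycomb repressive complex 2 (PRC2) deposits and that keeps genes silent in plants. In Arabidopsis the mark often covers a single gene, but in places it runs without a break over several neighbours. VAL proteins, among them VAL2, carry a B3 domain that binds the RY motif and bring PRC2 to seed genes such as *DOG1*. The regions described here are very broad H3K27me3 domains, each a single peak of 10 kb or more on chromosomes 1 to 5. They were chosen by measured values, namely the start and end that the authors' peak caller gave in 1 library, the first wild-type (Col-0) replicate at 3 days after imbibition (DAI). That list held 6710 peaks on these chromosomes, and 593 of them (8.84%) met the rule.

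H3K27me3 was profiled by ChIP-seq in 12 libraries, 2 per genotype and time point, from *Atsdr4l-4*, *Atsdr4l-5* and Col-0 plants at 3 DAI and at 1 DAI. The labels give seedlings on 1% sucrose for all 12. Both mutant alleles are small deletions in the *AtSDR4L* gene in the Col-0 background. *Atsdr4l-4* was segregated from a plant with a different mutation in each copy of *AtSDR4L*. *Atsdr4l-5* was made with CRISPR and backcrossed, and its lines without Cas9 were bulked. A peak list holds no expression, so neither the tissue nor the genotype could be checked against markers. Both alleles are called *Atsdr4l* where they are joined.

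The domains were 10011 to 58560 bp wide, with a median of 13501 bp and quartiles of 11383 and 16888 bp. Of the 593, 96 reached 20 kb and 17 reached 30 kb, whereas the other 6117 peaks of the list had a median width of 2294 bp. The domains added up to 9.11 Mb, which is 33.2% of the bases in peaks of that library and 7.64% of chromosomes 1 to 5. They numbered 161 on chromosome 1, 110 on chromosome 2, 98 on chromosome 3, 95 on chromosome 4 and 129 on chromosome 5. Domains took between 6.26% of chromosome 3 and 8.61% of chromosome 1. The authors' fold enrichment, the pileup over the local background averaged across the peak, had a median of 2.60 in domains and 2.01 in the other peaks. The 3 narrowest domains held *MSRB7*, *MSRB8* and *MSRB9* in 10011 bp, *RR22* and *LTL1* in 10013 bp, and the stomatal regulator *SPCH* in 10015 bp, at 2.58-, 2.82- and 3.42-fold enrichment. The 3 widest peaks below the limit were 9974, 9956 and 9956 bp wide, at 2.74-, 2.28- and 3.25-fold, and their first genes were *AT5G54700*, *AT4G11930* and *AT5G56390*.

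The RY motif was denser in the domains than across the chromosomes, so stretches that carry it are shown for domains described further on. Each is an 80-base window with the most RY matches in its domain, outside the non-coding parts of mRNA exons, on the plus strand of TAIR10.1 from RefSeq. Capitals mark RY matches (CATGCA or its reverse complement TGCATG), which may overlap.
*AT1G51850* domain, intergenic, chr1:19247760-19247839: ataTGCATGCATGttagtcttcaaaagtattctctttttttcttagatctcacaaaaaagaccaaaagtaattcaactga
*BARS1* domain, intergenic, chr4:8779700-8779779: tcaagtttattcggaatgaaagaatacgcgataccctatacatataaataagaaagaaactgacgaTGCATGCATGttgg
*MRN1* domain, intergenic, chr5:17035289-17035368: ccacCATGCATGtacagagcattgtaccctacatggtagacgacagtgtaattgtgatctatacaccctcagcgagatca
*FT* domain, intron of *FT*, chr1:24333107-24333186: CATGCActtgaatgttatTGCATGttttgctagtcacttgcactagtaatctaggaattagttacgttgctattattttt
*LEC1* domain, intergenic, chr1:7724396-7724475: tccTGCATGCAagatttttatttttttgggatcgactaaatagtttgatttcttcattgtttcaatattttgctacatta
*DOG1* domain, intergenic, chr5:18591824-18591903: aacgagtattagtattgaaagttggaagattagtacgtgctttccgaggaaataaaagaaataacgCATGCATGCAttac
The *AT1G51850*, *BARS1*, *MRN1* and *FT* stretches lay wholly in peaks of all 5 other 3 DAI libraries and all 6 1 DAI libraries. The *LEC1* stretch lay in peaks of all 5 other 3 DAI libraries and 4 of the 6 1 DAI libraries. The *DOG1* stretch, with 3 overlapping matches, lay in peaks of all 5 other 3 DAI libraries and 1 of the 6 1 DAI libraries.

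Over all domains the RY motif occurred 6.80 times per 10 kb, against 7.66 in the other peaks and 4.97 across chromosomes 1 to 5. At the level of single domains, 427 of the 593 exceeded the density of the chromosomes, and the range ran between 0 and 18.9 matches per 10 kb. The motif was in 99.2% of the central 10 kb of domains and in 97.0% of consecutive 10 kb windows of the genome. The telobox AAACCCTA and the GA repeat GAGAGAGA, which are also found at Polycomb targets in plants, were sparser in domains. The telobox occurred 1.36 times per 10 kb in domains, 1.64 times in the other peaks and 1.66 times across the chromosomes. The GA repeat occurred 2.50 times per 10 kb in domains, 3.13 times in the other peaks and 3.29 times across the chromosomes. The G-box CACGTG occurred 1.38 times per 10 kb in domains, against 1.61 in the other peaks and 1.22 across the chromosomes. Matches were counted on both strands at every position, and GC content was 33.1% in domains, 34.3% in the other peaks and 36.0% across the chromosomes. A match is a description of the letters and no binding site.

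The list that chose the domains covers them completely and in 1 piece by construction, so that library was left out of the comparisons over these domains, which leaves 11. In those 11 libraries, 128 domains were intact throughout, meaning that 1 peak spanned at least 90% of the domain, and no domain lacked a peak in any library. At 3 DAI, the *Atsdr4l-4* libraries had 92.2% and 96.1% of domain bases in peaks, the *Atsdr4l-5* libraries 94.1% and 95.003%, and the other Col-0 replicate 97.7%. At 1 DAI, the *Atsdr4l-4* libraries had 88.9% and 87.3%, the *Atsdr4l-5* libraries 82.4% and 88.3%, and the Col-0 libraries 87.5% and 87.2%. All 5 values at 3 DAI lay above all 6 values at 1 DAI. The difference was 8.51 percentage points, the mean of the differences inside the 3 genotypes. Each genotype had equal weight, although Col-0 had 1 library left at 3 DAI. Time labels were permuted inside genotypes (exact, two-sided, p = 0.00926, the smallest that 108 relabellings allow, and 0.0309 after Benjamini-Hochberg adjustment over 10 comparisons). Leaving out the first *Atsdr4l-5* library at 1 DAI, which was the lowest, the difference was 7.53 points (exact permutation p = 0.0185).

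This time difference depended on the list that chose the domains. With domains from another list, the library left out is the one that gave that list, and with merged peaks none is. With the 624 domains of the second Col-0 list at 3 DAI it was 7.85 points (exact permutation p = 0.00926), and with 801 domains of the merged peaks of all 12 libraries it was 7.12 points (exact permutation p = 0.0185). With the 442 peaks of 10 kb or more in the first Col-0 list at 1 DAI, a choice added after the data were seen, it was 0.41 points (exact permutation p = 0.713). Coverage then averaged 96.6% at 3 DAI and 96.1% at 1 DAI. A list from 1 DAI favours coverage at 1 DAI, just as a list from 3 DAI favours coverage at 3 DAI. The number of peaks of 10 kb or more was also taken in each library's own list. It was 439 and 624 in the *Atsdr4l-4* libraries, 518 and 516 in those of *Atsdr4l-5* and 593 and 624 in Col-0 at 3 DAI, against 473 and 436 in the *Atsdr4l-4* libraries, 348 and 466 in those of *Atsdr4l-5* and 442 and 460 in Col-0 at 1 DAI. Without the choosing library, whose count is the one the rule used, the difference was 120 peaks (exact permutation p = 0.0185 over 108 relabellings, unadjusted), and the ranges overlapped. Deeper sequencing can also widen peaks. The lists give no depth, and its part in these differences was not tested.

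**Figure D1:**
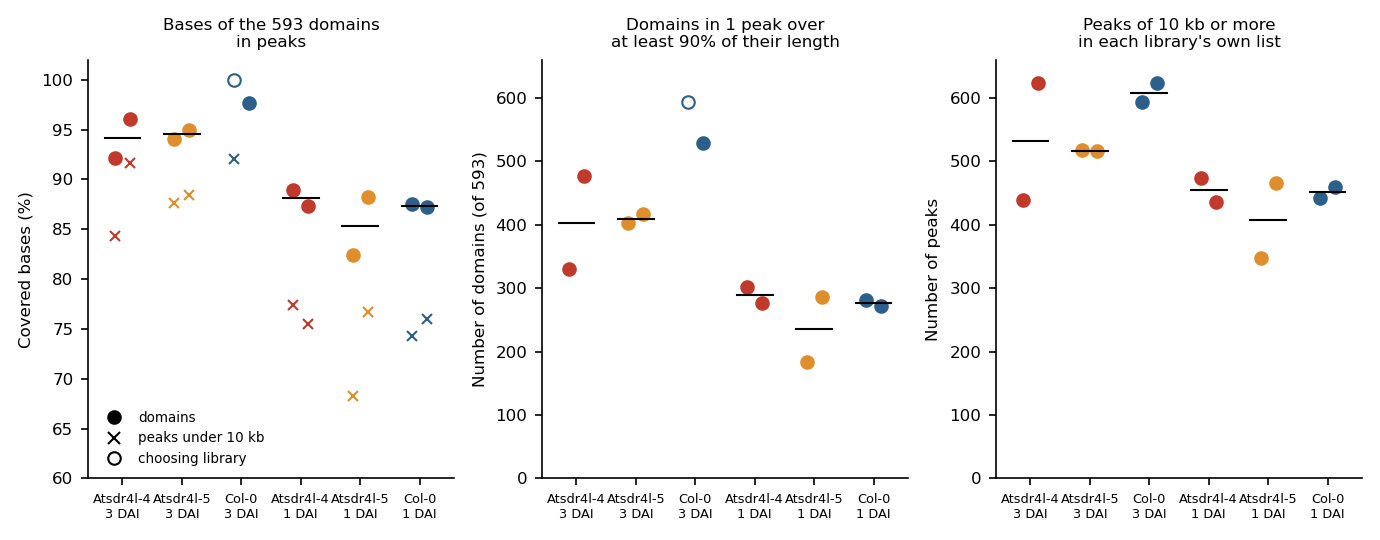
Each point is 1 library, grouped by genotype and days after imbibition (DAI), with the mean of the group as a bar; the panels give the percentage of domain bases in peaks (crosses, peaks under 10 kb), the number of the 593 domains in 1 peak over at least 90% of their length, and the number of peaks of 10 kb or more in the library's own list. The open circle is the library that chose the domains, at 100% and 593 by construction, and all 5 other 3 DAI libraries lie above all 6 1 DAI libraries in the first 2 panels.

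Breakup into pieces followed the same order. At 3 DAI a domain held 1.48 and 1.18 peak pieces on average in the *Atsdr4l-4* libraries, 1.30 and 1.30 in those of *Atsdr4l-5* and 1.10 in Col-0. At 1 DAI it held 1.45 and 1.51 pieces in the *Atsdr4l-4* libraries, 1.76 and 1.47 in those of *Atsdr4l-5* and 1.52 and 1.56 in Col-0. One *Atsdr4l-4* library at 3 DAI lay within the range of 1 DAI, while the other 4 lay below it. The difference was -0.30 pieces (exact permutation p = 0.0185, adjusted p = 0.0463), and restricting the lists to peaks with 2-fold enrichment or more turned its sign (0.012, exact permutation p = 0.806). Leaving out either Col-0 library at 1 DAI also moved p above 0.05 (-0.31 and -0.29, exact permutation p = 0.0556 in both). Intact domains numbered 330, 477, 402 and 417 in the *Atsdr4l* libraries and 529 in Col-0 at 3 DAI. At 1 DAI they numbered 302, 277, 184 and 286 in *Atsdr4l* and 282 and 272 in Col-0. Every 3 DAI library had more than every 1 DAI library. The mean over libraries was 431 at 3 DAI and 267 at 1 DAI. Averaged over the 3 genotypes with equal weight, the difference was 180 domains (exact permutation p = 0.00926, adjusted p = 0.0309). With the 1 DAI list these became -0.052 pieces (exact permutation p = 0.444) and 15.8 intact domains (exact permutation p = 0.537).

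In 265 domains 1 peak spanned at least 90% in all 5 other 3 DAI libraries, against 151 domains in all 6 1 DAI libraries. There were 34 domains intact in all 5 of those 3 DAI libraries and in none at 1 DAI, and 24 that were intact in none of the 11. Conversely, 18 domains held several pieces in all 5 of those 3 DAI libraries and 128 did so in all 6 1 DAI libraries. The domains come from a list at 3 DAI, which favours intact domains at that time. A state is also more easily shared by all of 5 libraries than by all of 6. These counts have no share over all peaks beside them and no test.

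The missing bases were divided between the edges and inner gaps. Of the domain bases outside peaks, 41.3% to 58.4% lay at the edges in the 3 DAI libraries and 44.1% to 51.2% in the 1 DAI libraries. The number of inner gaps over all domains was 58 to 285 at 3 DAI and 265 to 451 at 1 DAI. Their median length was 1228 to 1497 bp at 3 DAI, against 1478 to 1583 bp at 1 DAI. In the outermost 500 bp of the domains 68.2% to 85.4% of bases were in peaks at 3 DAI, against 50.5% to 65.3% at 1 DAI. Between 4.5 and 5 kb inside the edge it was 94.7% to 98.8% at 3 DAI and 85.7% to 91.8% at 1 DAI. Between 500 and 1000 bp outside it was 2.7% to 12.3% at 3 DAI and 3.3% to 10.3% at 1 DAI. Coverage deep inside was thus also higher at 3 DAI, whereas the ranges just outside overlapped. The edges come from a list at 3 DAI, and this choice favours 3 DAI coverage inside them and its absence just outside. Edges from a 1 DAI list were not profiled.

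**Figure D2:**
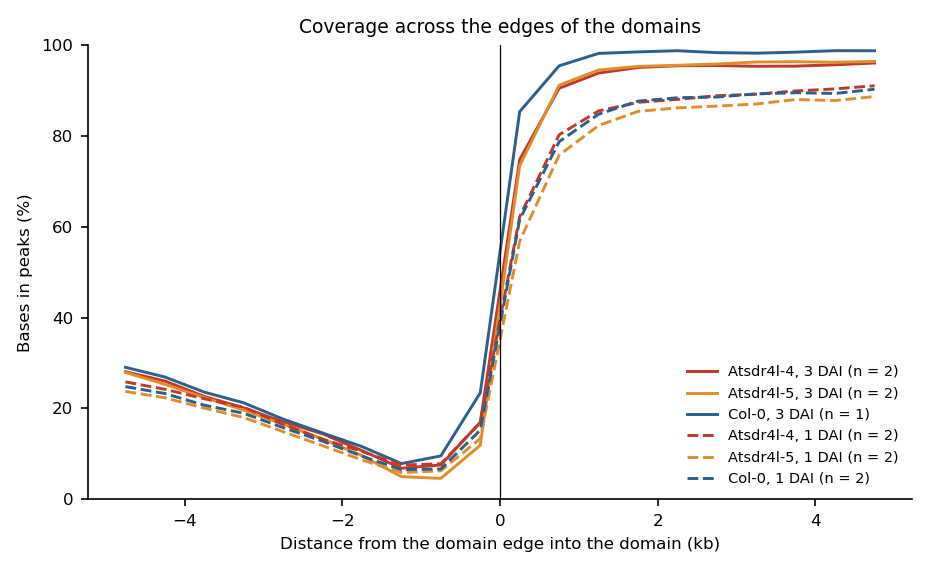
The curves give the percentage of bases in peaks in 500 bp windows by distance from the domain edge (kb, negative outside), averaged over the edges of the 593 domains and over the libraries of a group (n in the legend), without the choosing library. The solid 3 DAI curves run above the dashed 1 DAI curves inside the domains, and all fall to 12.3% or less between 500 and 1000 bp outside. The edges come from a list at 3 DAI, which favours this order inside.

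The domains were better covered than the narrower peaks of the same list in all 11 libraries. At 3 DAI the advantage was 4.44 to 7.87 percentage points in *Atsdr4l* and 5.63 points in Col-0, and at 1 DAI 11.5 to 14.1 points in *Atsdr4l* and 13.3 and 11.2 points in Col-0. The advantage differed by -6.17 points between 3 DAI and 1 DAI (exact permutation p = 0.00926, adjusted p = 0.0309), and with the 1 DAI list by 0.90 points (exact permutation p = 0.343). Coverage was higher in wider peaks at both times. Peaks of 5 to 10 kb averaged 92.8% at 3 DAI and 82.2% at 1 DAI, and domains of 10 to 15 kb averaged 94.0% at 3 DAI and 85.0% at 1 DAI. Domains of 15 to 20 kb averaged 95.7% at 3 DAI and 87.7% at 1 DAI, and those of 20 kb or more 96.0% at 3 DAI and 89.3% at 1 DAI. The fold enrichment of peaks inside domains, relative to that of all peaks of the library, was above 1 everywhere, at 1.06 to 1.11 at 3 DAI and 1.06 to 1.10 at 1 DAI. The time points differed by -0.0019 on this ratio (exact permutation p = 0.907).

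None of the 5 tests between *Atsdr4l* and Col-0 passed the threshold. Domain coverage differed by -1.99 points in *Atsdr4l*, with genotypes permuted inside time points (exact, two-sided, p = 0.227, adjusted p = 0.362, 75 relabellings). Pieces per domain differed by 0.11 (exact permutation p = 0.253), intact domains by -68.6 (p = 0.187), the advantage over other peaks by 0.37 points (p = 0.733) and relative enrichment by 0.0045 (p = 0.733). Without the second Col-0 library at 3 DAI, the only one left of its group, the differences were -0.66 points of coverage, 0.0059 pieces and -14.8 intact domains. The rule chose the domains in a Col-0 library and so favours Col-0 coverage. The change of the genotype difference with time was -2.67 points for coverage (exact permutation p = 0.387), 0.21 pieces (p = 0.267) and -108 intact domains (p = 0.267). Keeping only peaks with a -log10 q of 5 or more, *Atsdr4l* had 0.094 more pieces per domain than Col-0 (exact permutation p = 0.0267).

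Single domains were then compared by covered share. In 173 of the 593 domains (29.2%) the share was higher in all 5 other 3 DAI libraries than in all 6 1 DAI libraries, where 22.8% of all 6710 peaks of the list showed the same. Among peaks of 5 to 10 kb, 23.7% did. A single domain ran the other way, against 0.492% of all peaks. Both counts rest on a list from 3 DAI, which favours the first. In the first Col-0 list at 1 DAI, a choice added after the data were seen, 22 of 442 domains (4.98%) were higher in all 6 3 DAI libraries than in the 5 other 1 DAI libraries, against 4.80% of all 6474 peaks of that list. The reverse held for 11 domains (2.49%), against 3.77% of all peaks. A list from 1 DAI favours the reverse. The single domain of the 593 that was lower at 3 DAI held *MYB78*, a MYB transcription factor gene, *AAP6*, an amino acid permease gene, and *TAS3b*, a trans-acting siRNA locus. Its share was 92.3%, 91.7%, 92.0% and 92.0% in the *Atsdr4l* libraries and 92.6% in Col-0 at 3 DAI, against 99.96% in the second *Atsdr4l-5* library and 100% in the other 5 libraries at 1 DAI. It was in 2 pieces in 4 of the 5 other libraries at 3 DAI, with a longest peak of 11270 to 11331 bp, and in 1 piece in all 6 at 1 DAI. Mean coverage per domain had a median of 96.6% at 3 DAI and 90.2% at 1 DAI. It was below 50% in no domain at 3 DAI and in 12 domains at 1 DAI.

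**Figure D3:**
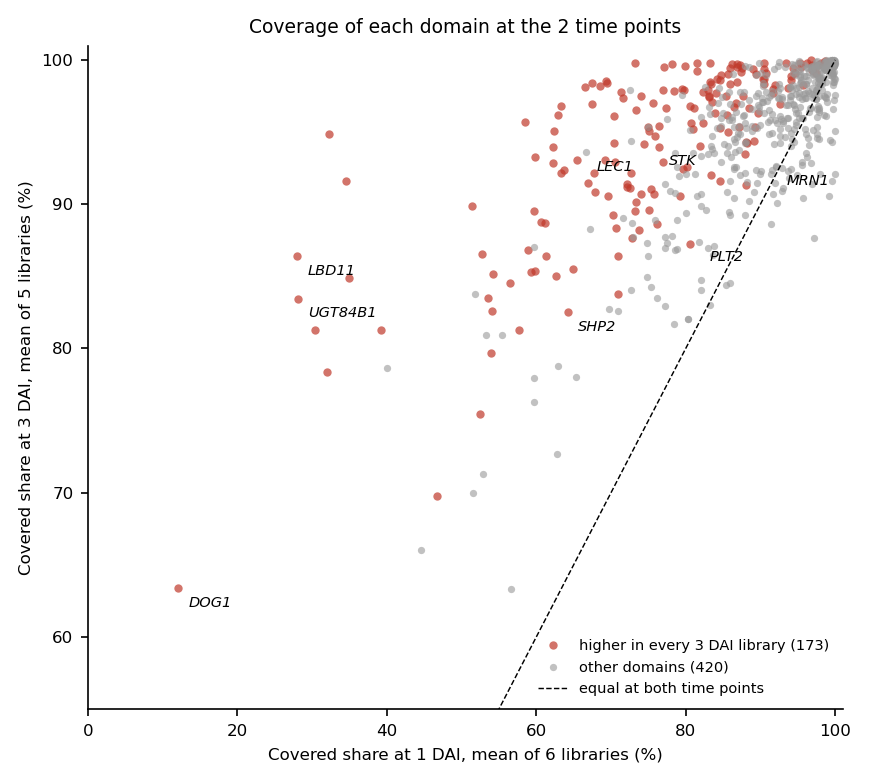
Each point is 1 of the 593 domains, by its mean covered share in the 6 libraries at 1 DAI (x axis, %) and in the 5 other libraries at 3 DAI (y axis, %). Red marks the 173 domains whose share was higher in every 3 DAI than in every 1 DAI library; the *DOG1* domain lies at 63.4% at 3 DAI and 12.03% at 1 DAI.

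The domain with the lowest coverage at 1 DAI held *DOG1* (delay of germination 1), a major gene of seed dormancy, with the kinase genes *CIPK19* and *CIPK20* (chr5:18584029-18595633). Its covered share was 63.0% and 62.5% in the *Atsdr4l-4* libraries, 52.1% and 73.8% in those of *Atsdr4l-5* and 65.6% in Col-0 at 3 DAI. At 1 DAI it was 10.2% and 12.02% in the *Atsdr4l-4* libraries, 3.76% and 8.50% in those of *Atsdr4l-5* and 8.22% and 29.5% in Col-0. Within 1 DAI the second Col-0 library was the highest. Over the *DOG1* gene itself, peaks covered 72.9%, 81.2%, 75.3% and 77.0% in *Atsdr4l* and 76.7% in Col-0 at 3 DAI. At 1 DAI the gene was free of peaks in all 4 *Atsdr4l* libraries and the first Col-0 library, and covered to 71.9% in the second Col-0 library. Each of the 6 1 DAI libraries had a small piece that overlapped *CIPK20*, and in 5 of them it was the only one.

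The next lowest domain held *LBD11*, a LOB-domain gene, and *AT2G28490*, a cupin gene. It was covered to 74.1% to 89.0% in *Atsdr4l* and 99.7% in Col-0 at 3 DAI, against 14.3% to 30.2% in *Atsdr4l* and 24.9% and 46.4% in Col-0 at 1 DAI. The third held *UGT84B1* and *UGT84B2*, which encode glucosyltransferases, and the metallothionein-like gene *AtMT4b*. It was covered to 70.5% to 87.5% in *Atsdr4l* and 100% in Col-0 at 3 DAI, and to 16.8% to 31.5% in *Atsdr4l* and 31.0% and 32.7% in Col-0 at 1 DAI. These 3 domains were taken for their low coverage at 1 DAI in a list from 3 DAI, so their direction follows from the choice. At the other end, the domain of *KNAT7*, a knotted-like homeobox gene, and the expansin gene *EXPA18* was fully covered in all 6 1 DAI libraries and to 93.4% to 100% at 3 DAI. A domain at the defensin-like gene *AT1G31772* was covered to 99.2% to 100% at 3 DAI and to at least 99.97% at 1 DAI.

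Bases that no 1 DAI library covered made up 595 kb, or 6.53% of the domains. Of these, 174 kb (1.91% of the domains) lay in peaks of all 5 other 3 DAI libraries, whereas 6985 kb (76.7%) lay in peaks of all 11 libraries. Bases that none of the 5 other 3 DAI libraries covered made up 53.7 kb, or 0.590% of the domains. The domains come from a list at 3 DAI, which favours bases covered at 3 DAI and not at 1 DAI. Annotated gene models held 54.8% of the 174 kb and 46.5% of all domain bases. They also held 52.0% of the 595 kb in no 1 DAI peak. Of the 53.7 kb in no peak of the 5 other 3 DAI libraries they held 53.8%, so a higher gene share was not particular to the 174 kb. Stretches in peaks of all 5 other 3 DAI libraries and of no 1 DAI library reached 1000 bp or more in 61 domains. Such bases and stretches were not counted over all peaks of the list, so no share stands beside them, and they have no test. The longest stretch was 4933 bp and ran over *NAMT1*, a methyltransferase gene, and *AT5G04380* (chr5:1232030-1236962). The next, of 3164 bp, overlapped no gene in the domain of *NCED5*, a gene of abscisic acid synthesis. The next in length overlapped *AT3G29260* (2925 bp), *IAMT1* with *ATPXG2* (2704 bp), *SAUR36* (2638 bp) and *CYP71A26* (2504 bp). These 6 stretches were taken by their length after the values were seen.

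Several of the 10 widest domains held arrays of related genes. The widest (chr1:19218690-19277249, 58560 bp) held 9 of the 12 members of an array of leucine-rich repeat receptor kinase genes, *AT1G51805* to *AT1G51890*, among them the root-hair gene *RHS6*. Covered shares were 97.1%, 94.5%, 97.0% and 100% in *Atsdr4l* and 99.9% in Col-0 at 3 DAI, and 97.6%, 99.9%, 91.9% and 97.7% in *Atsdr4l* and 95.7% and 93.1% in Col-0 at 1 DAI. The time points overlapped. A single peak ran through it in 4 of the 5 other 3 DAI libraries, and 3 of the 6 1 DAI libraries broke it at 40.2, 41.1 and 40.3 kb from its start. The second widest (chr4:8742185-8798113, 55929 bp) held *PEN1* and *BARS1*, which encode triterpene synthases, and the cytochrome P450 genes *CYP705A1*, *CYP705A2*, *CYP705A3* and *CYP705A4*. It held 1 or 2 pieces in the 3 DAI libraries and 2 to 5 in the 1 DAI libraries, all 6 of which had a break that began 48.6 to 48.7 kb from its start. The first *Atsdr4l-5* library at 3 DAI also broke there, at 48.9 kb. In 5 of the 11 libraries its peak joined neighbouring domains into 1 of 76210 to 83608 bp. The choosing library itself broke that region at gaps of 1285 and 1230 bp.

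The third widest was the marneral cluster (chr5:17022654-17064979, 42326 bp), in which *MRN1* encodes marneral synthase and *CYP71A16* and *CYP705A12* encode P450 enzymes of the same pathway. Its share was 86.7%, 99.9%, 85.9% and 93.8% in *Atsdr4l* and 96.8% in Col-0 at 3 DAI, and 92.9%, 93.4%, 85.1% and 96.9% in *Atsdr4l* and 94.0% and 90.4% in Col-0 at 1 DAI. The time points overlapped, and the 3 genes were themselves covered to 100% at both times. The thalianol cluster was split by the rule into neighbouring domains of 12823 and 20431 bp with 2002 bp between them. A single peak of 34505 to 35716 bp bridged them in 3 of 5 other 3 DAI libraries and 4 of 6 1 DAI libraries. In all, 35 pairs of domains lay within 5 kb of each other, and 9 pairs were bridged in at least 1 library.

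Domain 4 by width (chr5:15103869-15146161) held dehydrogenase, methyltransferase and glycosyltransferase genes between *AT5G37940* and *AT5G38000*. It was 1 piece in the first *Atsdr4l-4* library and the first Col-0 library at 1 DAI, and 8 pieces in the first *Atsdr4l-5* library at 1 DAI, whose share of 75.2% was far below the 97.2% to 100% of the other *Atsdr4l* libraries at that time. Domain 5 (chr4:10729753-10770684) held 9 glycosyl hydrolase genes, including *ChiC*, a chitinase gene. Its share was 94.3%, 99.998%, 95.1% and 98.7% in *Atsdr4l* and 96.9% in Col-0 at 3 DAI, and 89.2%, 86.9%, 85.1% and 87.1% in *Atsdr4l* and 87.5% and 84.3% in Col-0 at 1 DAI, with no overlap between times. Domain 6 held 5 TIR-NBS-LRR disease resistance genes, *AT5G45200* to *AT5G45240*, and was covered to 95.3% to 99.3% at 3 DAI and to 87.5% to 95.6% at 1 DAI. Domain 7 held the florigen gene *FT* and an array of 5 small uncharacterized genes beside it. It was 1 piece in all 5 other 3 DAI libraries and 1 to 3 pieces at 1 DAI, and the *FT* gene was covered to 100% at both times. Domains 8 and 9 held *MEE39* with other leucine-rich repeat kinase genes, and *HO4*, *ZW2* and *ZF14*.

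Domain 10 (chr1:22226815-22261623) held NAC transcription factor genes, *NAC023* and *NAC024* among them, and *PG1*, a polygalacturonase gene. It also had one of the 3 highest piece counts at 1 DAI, with 3 or 4 pieces in each library, and the longest piece was 14602 to 14922 bp in all 6. Each of the 6 broke at 4.0 to 4.7 kb and again at 20.7 to 20.8 kb from the start of the domain. All 4 *Atsdr4l* libraries at 3 DAI were also broken, at *PG1*, where peaks covered 43.4%, 30.1%, 39.5% and 10.7% of the gene, against 100% in the other Col-0 library at 3 DAI. At 1 DAI the gene was covered to 6.62%, 4.22%, 4% and 19.1% in *Atsdr4l* and to 3.51% and 16.1% in Col-0. *PG1* is on no gene list, was picked after its values were seen and has no test. The contrast at 3 DAI rests on 1 Col-0 library, and the domain was chosen as unbroken in the other Col-0 replicate, which favours Col-0. The most pieces were in a TRAF-like gene array with *RTM3*, a virus resistance gene, at 2 to 4 pieces at 3 DAI and 4 to 6 at 1 DAI. The domain of *MYB85*, *LBD32*, *CYP706A1* and *CYP706A2* held 2 pieces in all 5 of the 3 DAI libraries and 3 or 4 at 1 DAI.

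**Figure D4:**
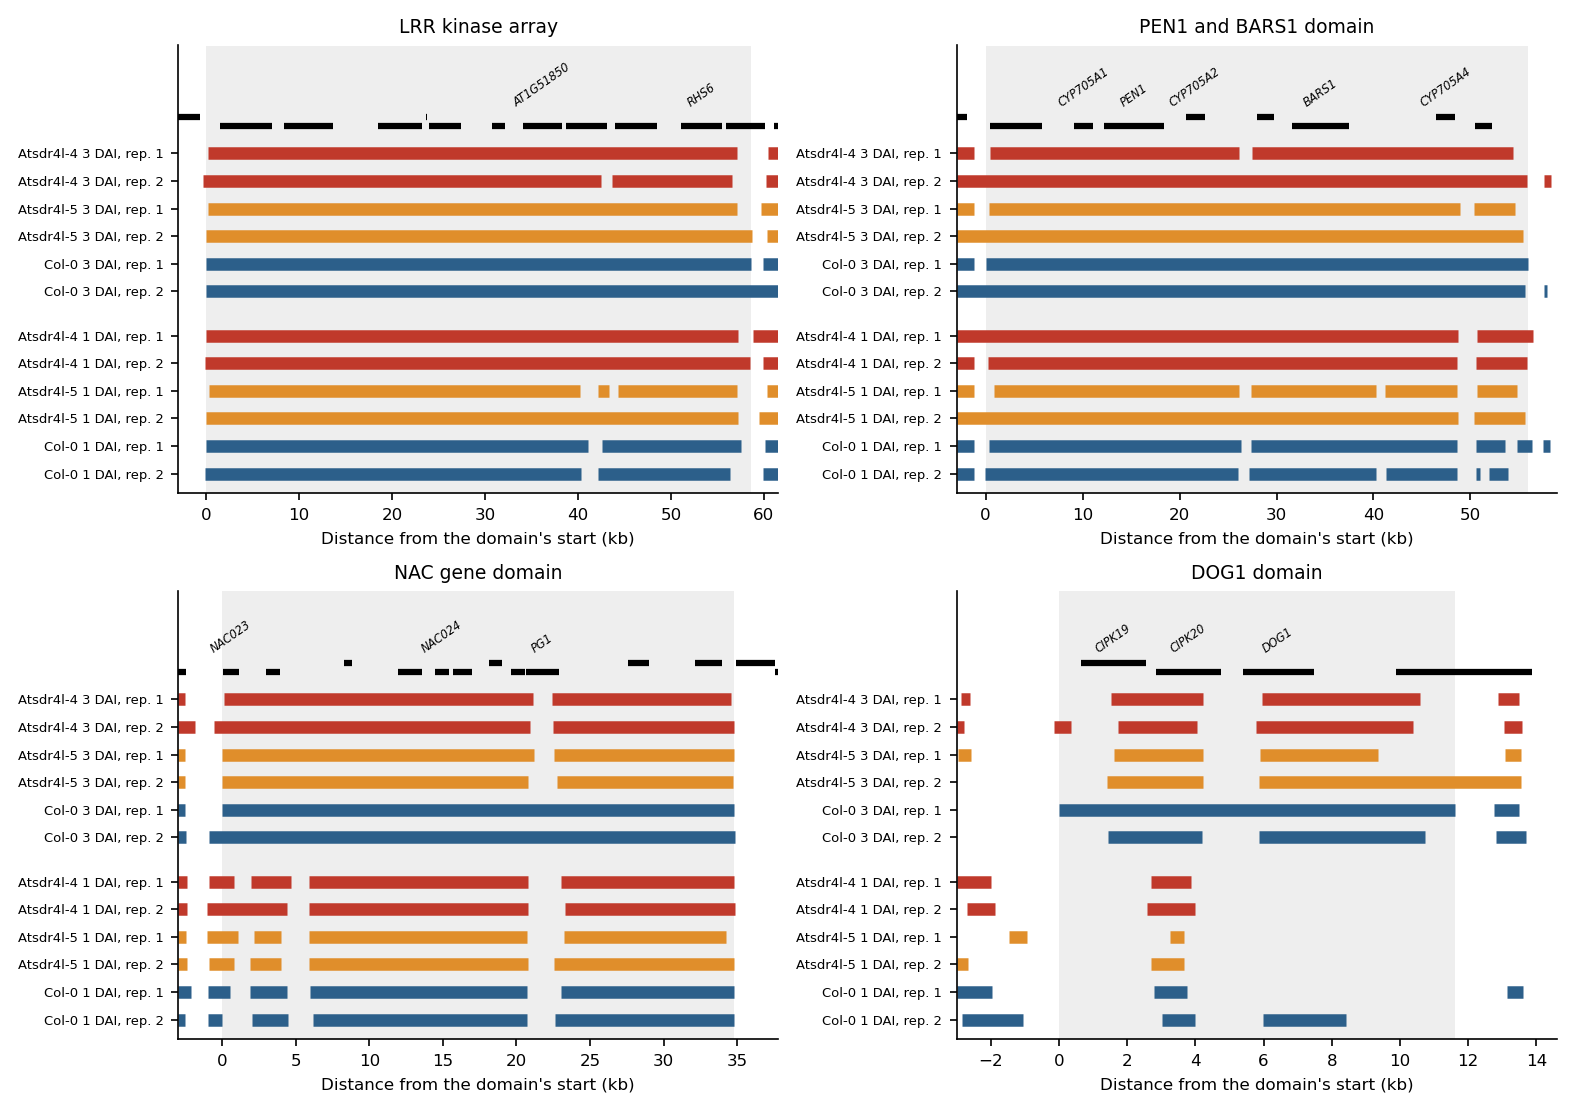
Horizontal bars are the peaks of each of the 12 libraries (rows, red and orange *Atsdr4l*, blue Col-0) by distance from the start of the domain in kb, with the domain shaded and protein-coding genes in black above. At 1 DAI the leucine-rich repeat kinase array is broken at 40.2 to 41.1 kb in 3 of the 6 libraries, the *BARS1* domain at 48.6 to 48.7 kb and the NAC domain at 20.7 to 20.8 kb in all 6, and the *DOG1* domain has a small piece at *CIPK20* in all 6 libraries at 1 DAI. At 3 DAI the *BARS1* domain is also broken at 48.9 kb in the first *Atsdr4l-5* library, and the NAC domain at 20.8 to 21.2 kb in the *Atsdr4l* libraries.

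The domains were rich in tandem duplicates, that is neighbouring genes whose proteins were at least 40% identical. They held 2057 protein-coding genes, counted where at least 50% of the gene lay inside, with a median of 3 and at most 16 per domain, and 7 domains held none. Of these genes 860 (41.8%) belonged to a tandem array, against 1253 of 5189 (24.1%) in the other peaks and 4019 of 27444 (14.6%) on chromosomes 1 to 5. The share grew with width, at 37.9% in domains of 10 to 15 kb, 42.3% in those of 15 to 20 kb and 48.8% in those of 20 kb or more. These shares are descriptions of 1 annotation and have no test. Of the 593 domains, 264 held at least a tandem pair. A wider peak has room for more neighbours, and the part of width in these shares was not tested. Of 1505 arrays in the genome, 281 had at least 2 members in a domain and 213 lay wholly inside one. Pseudogenes made up 5.73% of all annotated genes in domains, 5.37% in the other peaks and 12.8% on the chromosomes, and 35 miRNA genes lay in domains.

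**Figure D5:**
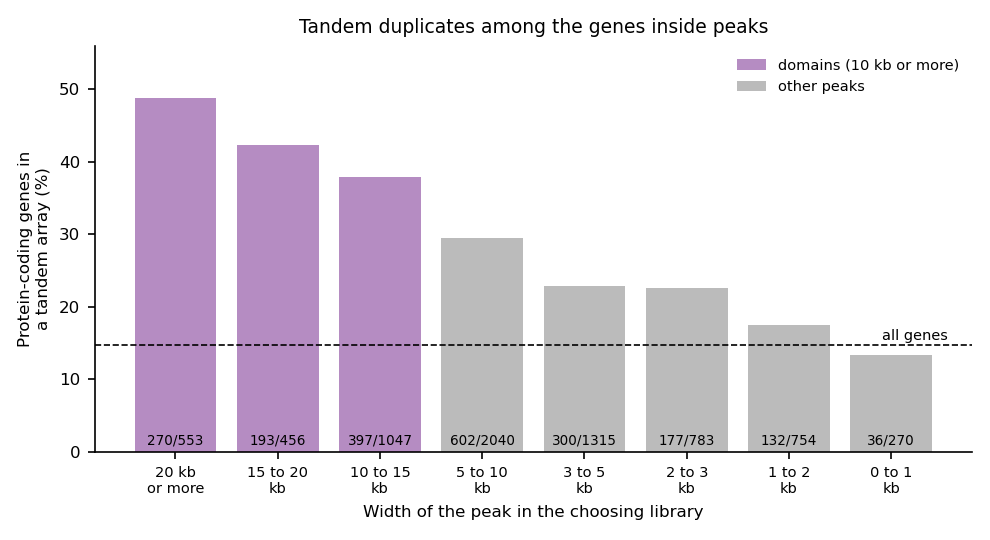
Bars give the percentage of protein-coding genes inside peaks that belong to a tandem array, by peak width in the choosing library, with the counts at the foot of each bar and all genes of chromosomes 1 to 5 as a dashed line. The share is 48.8% in domains of 20 kb or more and 13.3% in peaks under 1 kb.

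Domains with and without arrays had similar median coverage. Domains with a tandem pair were wider, with a median of 14936 bp against 12588 bp in those without. Their median coverage was 96.7% at 3 DAI and 89.8% at 1 DAI, against 96.4% at 3 DAI and 90.4% at 1 DAI in domains without. They held more pieces in all 11 libraries, at 1.12 to 1.56 per domain at 3 DAI and 1.53 to 1.93 at 1 DAI, against 1.08 to 1.42 at 3 DAI and 1.37 to 1.63 at 1 DAI without an array. Width moves with this difference, and its part in it was not tested.

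The longest array inside a domain had 10 genes, *AT1G23560* to *AT1G23690*, mostly annotated with a DUF220 domain, all on the minus strand and 43.8% to 79.5% identical (chr1:8348562-8379101). The domain was covered to 85.2% to 88.0% at 3 DAI and to 79.1% to 85.3% at 1 DAI. The kinase and glycosyl hydrolase arrays followed with 9 members each, at 53.5% to 87.5% and 53.8% to 89.8% identity. The remaining arrays of the longest 5 had 8 members each, *AT3G50120* to *AT3G50190*, whose first member is annotated with a DUF247 domain, and *AT4G23350* to *AT4G23390*, annotated with a DUF239 domain or as carboxyl-terminal peptidases. The H3K27me3 domain that begins at *AT3G50120* was covered to 95.1% to 99.4% at 3 DAI and to 92.3% to 99.1% at 1 DAI, and that of the *AT4G23350* array to 95.5% to 100% at 3 DAI and to 96.7% to 98.8% at 1 DAI. The last was a single piece in all 12 libraries. The first 90 coding bases of its 8 members show how far the copies differ. Capitals mark bases equal to those of *AT4G23350* at the same place counted from the start codon (TAIR10.1, minus strand).
*AT4G23350*, chr4:12199111-12199200: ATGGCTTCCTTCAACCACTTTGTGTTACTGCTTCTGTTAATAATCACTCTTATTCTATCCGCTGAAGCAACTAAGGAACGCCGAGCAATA
*AT4G23355*, chr4:12201924-12202013: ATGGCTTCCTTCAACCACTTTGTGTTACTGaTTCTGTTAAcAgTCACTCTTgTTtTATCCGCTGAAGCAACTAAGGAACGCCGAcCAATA
*AT4G23360*, chr4:12204703-12204792: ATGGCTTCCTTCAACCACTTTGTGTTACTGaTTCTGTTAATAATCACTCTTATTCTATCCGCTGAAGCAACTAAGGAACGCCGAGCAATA
*AT4G23365*, chr4:12208051-12208140: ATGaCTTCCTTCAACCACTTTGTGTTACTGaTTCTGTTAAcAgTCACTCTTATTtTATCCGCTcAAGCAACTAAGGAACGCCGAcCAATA
*AT4G23370*, chr4:12210856-12210945: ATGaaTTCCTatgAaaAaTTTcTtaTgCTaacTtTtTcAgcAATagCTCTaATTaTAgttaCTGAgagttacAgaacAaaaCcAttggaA
*AT4G23373*, chr4:12213346-12213435: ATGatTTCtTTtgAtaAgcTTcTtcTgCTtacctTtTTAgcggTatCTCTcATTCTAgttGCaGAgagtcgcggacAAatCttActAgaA
*AT4G23380*, chr4:12216244-12216333: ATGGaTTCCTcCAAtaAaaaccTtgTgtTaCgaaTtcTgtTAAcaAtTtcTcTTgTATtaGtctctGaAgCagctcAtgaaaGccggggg
*AT4G23390*, chr4:12219598-12219687: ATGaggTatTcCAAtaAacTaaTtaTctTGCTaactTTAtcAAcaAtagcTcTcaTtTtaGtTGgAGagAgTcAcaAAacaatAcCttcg
Of the 90 bases, *AT4G23355* shared 84, *AT4G23360* 89 and *AT4G23365* 83 with the first member, whereas *AT4G23370* shared 42, *AT4G23373* 41, *AT4G23380* 36 and *AT4G23390* 38. The median protein identity between members was 54.6%. Reads from near-identical copies can be placed on the wrong one or lost to the mapping quality filter, so coverage of the first 4 of these members one by one is uncertain.

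Domains held 7.50% of all protein-coding genes, and several families exceeded that share; the families were chosen with earlier results known and the shares have no test. Domains held 14 of 37 terpenoid cyclase genes (37.8%), 13 of 34 mannose-binding lectin genes (38.2%), 18 of 60 TRAF-like genes (30.0%), 16 of 62 peroxidase genes (25.8%) and 46 of 218 cytochrome P450 genes (21.1%). Copper transport protein genes reached 10 of 15, all in 1 domain. Among transcription factors they held 31 of 122 MYB genes (25.4%), 12 of 56 WRKY genes (21.4%), 24 of 119 bHLH genes (20.2%) and 14 of 76 AGAMOUS-like MADS genes (18.4%). The P450 genes were mostly tandem, with 27 of the 46 in an array, while none of the 12 WRKY genes was. Housekeeping families had 4 of 386 ribosomal protein genes (1.04%) in domains and 0 of 45 proteasome genes. Domains with TRAF-like genes had a median coverage of 95.7% at 3 DAI and 82.8% at 1 DAI, and those with peroxidase genes 97.7% at 3 DAI and 84.1% at 1 DAI. Those with mannose-binding lectin genes had 98.6% at 3 DAI and 95.6% at 1 DAI, and those with bHLH genes 98.3% at 3 DAI and 95.9% at 1 DAI.

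Of 90 developmental, seed and cluster genes taken from lists, 39 lay in 36 domains. These 36 domains had a median coverage of 97.6% at 3 DAI and 91.9% at 1 DAI, against 96.6% at 3 DAI and 90.2% at 1 DAI for all 593. In 8 of the 36 (22.2%) the share was higher in every 3 DAI library, against 29.2% of all domains and 22.8% of all peaks. Meristem and homeobox genes in domains were *STM*, *KNAT1* and *KNAT6* (3 of 4 KNOX genes) and *WUS*, *WOX2*, *WOX4*, *WOX8*, *WOX9*, *WOX11* and *WOX12* (7 of 10 WOX genes). The domain of *STM*, a gene of shoot meristem maintenance, was a single piece throughout, covered to 94.7% to 98.9% at 3 DAI and to 94.5% to 95.8% at 1 DAI. The *WOX11* domain, around a gene of root founder cells, was covered to 89.8% to 99.7% at 3 DAI and to 73.5% to 92.0% at 1 DAI. Its gene was covered to 100% in all 3 DAI libraries, against 31.9% to 47.7% in *Atsdr4l* and 71.1% and 43.5% in Col-0 at 1 DAI. The *WOX12* domain did not overlap between times, at 92.6% to 100% at 3 DAI and 80.7% to 87.1% at 1 DAI.

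Of the floral MADS genes, 7 of 14 lay in domains, namely *AG*, *AP1*, *FUL*, *AGL6*, *SEP4*, *SHP2* and *STK*. The domains of the floral identity genes *AG* and *AP1* were covered to 97.7% to 99.9% at 3 DAI and to 92.7% to 100% at 1 DAI. Those of *SHP2* and *STK*, which act in ovules and fruits, did not overlap between times. *SHP2* was covered to 75.5% to 100% at 3 DAI against 60.6% to 73.2% at 1 DAI, and *STK* to 83.4% to 99.9% at 3 DAI against 74.2% to 79.9% at 1 DAI. Of 9 flowering time genes 1, *FT*, lay in a domain. The boundary genes *CUC2* and *CUC3* (2 of 3 CUC genes) lay in domains of 10624 and 11121 bp. *CUC2* was covered to 89.6% to 100% at 3 DAI and to 82.2% to 89.5% at 1 DAI, with no overlap, and *CUC3* to 86.6% to 100% at 3 DAI and to 79.5% to 88.4% at 1 DAI. The root and ovule regulators *PLT1*, *PLT2* and *ANT* (3 of 7 listed) and the auxin synthesis genes *YUC2*, *YUC6* and *YUC8* (3 of 11) were also members. So were *FIL* (1 of 6 YABBY genes) and the stomatal genes *SPCH* and *FAMA* (2 of 3). Of the imprinted and endosperm genes, 0 of 5 lay in a domain.

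Among seed genes, *LEC1* and *LEC2*, of the LAFL group of embryo regulators, lay in domains, and *FUS3* and *ABI3* did not. The *LEC2* domain (24406 bp) was covered to 97.8% to 100% at 3 DAI and to 84.3% to 100% at 1 DAI, and its gene to 100% in all 12 libraries. The *LEC1* domain (10581 bp) was covered to 78.7% to 100% at 3 DAI and to 51.5% to 89.4% at 1 DAI. Over the *LEC1* gene, peaks covered 86.5%, 100%, 100% and 96.1% in *Atsdr4l* and 100% in Col-0 at 3 DAI. At 1 DAI they covered 14.4%, 14.4%, 0% and 19.6% in *Atsdr4l*, against 69.1% and 91.0% in Col-0. At 1 DAI the genotypes did not overlap over this gene, which was noticed after its values were seen and has no test. The study itself, from signal tracks, describes similar H3K27me3 at *LEC1* in wild type and mutants at 1 DAI. Coverage by called peaks is a different measure from signal. The only member among 7 seed storage genes was *CRU3*, a cruciferin gene. Its domain was covered to 99.03% to 99.995% at 3 DAI and to 80.8% to 98.4% at 1 DAI, and its gene to 100% in all 3 DAI libraries. At 1 DAI the gene was covered to 0%, 10.9%, 0% and 56.7% in *Atsdr4l* and to 0% and 100% in Col-0, so the replicates of a genotype differed widely.

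Single domains were also compared between genotypes at 1 DAI. In 70 domains (11.8%) the share was lower in all 4 *Atsdr4l* than in both Col-0 libraries, against 8.26% of all peaks and 11.7% of peaks of 5 to 10 kb. In 26 domains (4.38%) it was higher, against 5.98% of all peaks. At both time points 33 domains (5.56%) were lower in every *Atsdr4l* library, against 3.23% of all peaks and 5.13% of peaks of 5 to 10 kb. In 2 domains (0.337%) it was higher, against 1.42% of all peaks and 0.993% of peaks of 5 to 10 kb. At 3 DAI that rests on 1 Col-0 library. Domains and peaks alike come from a Col-0 list, which favours calls that are lower in *Atsdr4l*. The 2 higher domains held *BEN1* with the LOB-domain genes *LBD18* and *LBD19*, and *SBT4.12*, a subtilase gene. These and the following genes were picked after their values were seen. The largest difference among the 33 was in a domain of the glucosyltransferase genes *UGT85A1*, *UGT85A3* and *UGT85A5*, with 69.5% in *Atsdr4l* and 99.5% in Col-0 at 3 DAI, and 49.8% in *Atsdr4l* and 57.8% in Col-0 at 1 DAI. Another held *UGT73C1*, *UGT73C2* and *UGT73C6*, with 78.3% in *Atsdr4l* and 100% in Col-0 at 3 DAI, and 49.8% in *Atsdr4l* and 62.6% in Col-0 at 1 DAI. The domain of the terpene synthase genes *TPS12* and *TPS13* with *CYP71A19* and *CYP71A20* had 94.2% in *Atsdr4l* and 100% in Col-0 at 3 DAI, and 67.2% in *Atsdr4l* and 90.4% in Col-0 at 1 DAI. The list of 33 also held the *WOX11* domain.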

How the data were processed

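H3K27me3 ChIP-seq libraries from 12 samples were used, and the mock IgG and AtSDR4L samples were not analysed here. Per the study's methods and the submitters' processing notes, the authors trimmed reads with fastp 0.23.4, aligned them to TAIR10 with Bowtie 2, filtered them by mapping quality with SAMtools 1.6 and called broad peaks in each library with MACS2 (versions 2.2.7.1 and 2.2.6 are named) against joined mock IgG. Each deposited list gives, for every peak, a fold enrichment (a linear ratio) and -log10 p and q values, all computed by the authors' caller, and a display score from the authors, which was not used. They hold no counts, so depth is unknown and the number of libraries limits the precision. No peak passed the end of a TAIR10.1 chromosome.

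Libraries were grouped by their labels, and domains by the rule above; the choosing library was left out of tests over its own domains. Peaks on the organelle genomes were not used. Replicates of a group shared 81.7% to 89.5% of their covered length, so none were duplicates. Nothing states that they came from separate cultures, so the spread may be technical. Members and gene lists were chosen with earlier results of these data known. The named domains are the 10 widest, the 3 with the lowest, the 3 with the highest coverage and the 3 with most pieces at 1 DAI, those next to the width limit, the 5 longest arrays and the list genes, apart from those said to be picked later. Genes and sequences came from RefSeq TAIR10.1. Tandem neighbours had at most 1 gene between them and a local protein alignment (BLOSUM62, Biopython 1.88) of at least 40% identity over at least 50% of the longer protein. Tests were exact two-sided permutations, over 11 libraries except for merged peaks (12), checked on simulated peak lists, in Python 3.11.15 with numpy 2.4.6 and matplotlib 3.10.9. Time differences were averaged over genotypes, and genotype differences over time points, with equal weight, so they can differ from differences of library means. Domains from the 1 DAI list and the count of wide peaks per library were added after the data were seen. The other alternatives varied the peak threshold, joining, width rule, choosing list, intact share, tandem rule and libraries.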

Additional observations from a re-analysis of the deposited data

Results flagged for a closer look

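Within the 4 *Atsdr4l* libraries of a time point, 54 sets of values were tested for a library far from the rest. In 7 of them one stood out by Dixon's criterion, where chance gives about 1 in 20 for a single set. The sets share libraries and domains and are not independent, so the count of 7 cannot be read against that rate. In 6 of the 7 the library that stood out was the first *Atsdr4l-5* library at 1 DAI. Its advantage of domains over other peaks was 14.1 points, against 11.5 to 11.9 in the other libraries, and its relative enrichment was 1.06, against 1.09 to 1.10. It covered 92.3% of the domain that begins at *AT3G50120* (98.4% to 99.1% in the others), 63.8% of the *RTM3* domain (76.3% to 78.5%), 88.7% of the *BARS1* domain (96.0% to 96.6%) and 75.2% of the domain that begins at *AT5G37940* (97.2% to 100%). The remaining one was 99.96% in the *MYB78* domain in the second *Atsdr4l-5* library, where the others were at 100%. The first *Atsdr4l-5* library at 1 DAI also had the fewest bases in peaks of all 12 (21.3 Mb, against 23.7 to 28.2 Mb), and the part of depth was not tested.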

How the results depend on the processing

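Coverage, intact domains and the advantage over other peaks kept their direction and their side of 0.05 between 3 DAI and 1 DAI under every alternative set beforehand whose test could reach 0.05, and no *Atsdr4l* difference from Col-0 passed except 1. With peaks of a -log10 q of 5 or more, pieces per domain differed by 0.094 between *Atsdr4l* and Col-0 (exact permutation p = 0.0267). With peaks of at least 2-fold enrichment, pieces differed between 3 DAI and 1 DAI by 0.012. With domains from the first Col-0 list at 1 DAI, chosen after seeing the data, the differences between 3 DAI and 1 DAI were 0.41 points of coverage, -0.052 pieces, 15.8 intact domains and 0.90 points of advantage. That list favours coverage at 1 DAI, as the main list favours coverage at 3 DAI. The cause of these changes was not tested. Within *Atsdr4l-4* alone, 3 DAI differed from 1 DAI by 6.02 points, -0.15 pieces, 114 intact domains and -0.023 in relative enrichment. Within Col-0 alone, it differed by -0.44 pieces and 252 intact domains. The tandem share of domain genes was 31.4% at 60% identity, 36.9% with no gene between neighbours and 44.9% with up to 5, against 11.3%, 12.5% and 16.1% on the chromosomes.

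Leaving out each library in turn, the difference between 3 DAI and 1 DAI was 7.53 to 9.49 points of coverage, -0.35 to -0.23 pieces, 144 to 205 intact domains, -6.74 to -5.60 points of advantage and -0.0081 to 0.0043 in relative enrichment. The difference between *Atsdr4l* and Col-0 was -2.36 to -0.66 points, 0.0059 to 0.13 pieces, -80.4 to -14.8 intact domains, -0.15 to 0.88 points of advantage and 0.00019 to 0.011 in relative enrichment. The domains higher in every 3 DAI library numbered 174 to 220, against 173 with all 11 libraries. Leaving out a library can only keep or raise this count, so it is no check of it. With the replicate number as a block, the time differences were 8.19 points, -0.28 pieces and 166.8 intact domains (32 sign flips allow no p below 0.0625), and *Atsdr4l* differed by -1.14 points (exact permutation p = 0.556). The replicate numbers were not taken as pairs, since the deviations of same-numbered libraries did not correlate in every pair of groups, at -0.16 to 0.08 between time points of a genotype and -0.14 to 0.17 between genotypes at a time point. The lists give no depth, so the precision rests on the number of libraries.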
